A study of Mus musculus with 6 samples.

Results

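The genes described here encode the aldehyde dehydrogenases (Aldh), the alcohol dehydrogenases (Adh) and the aldo-keto reductases (Akr), compared between mouse liver tumours driven by Myc with oncogenic Nras and by Myc with Akt1. Members were chosen by symbol, as genes named Aldh, Adh or Akr followed by a digit, with at least 10 sequencing reads over the 6 libraries. Of 45 such symbols, the pseudogene Adh6-ps1 was left out, and Aldh3a1, Akr1cl and Adh6a had 3, 1 and 0 reads. Adh6b, with 13 reads, was the member nearest the limit. The 41 members, of 39179 genes in the files, comprised 20 Aldh, 5 Adh and 16 Akr genes. The tumours arose in livers of wild-type C57BL/6 mice after transposons were delivered by hydrodynamic injection, a rapid large-volume injection that drives plasmid DNA mainly into hepatocytes. Poly(A) RNA was sequenced from 3 Myc/NrasG12V tumours and from 3 Myc/Akt1 tumours, so both groups carried delivered Myc and differed in the delivered partner, NrasG12V or Akt1. Whether each tumour came from its own mouse is not said in the labels, so p-values measure the spread between these samples only, and a library of normal liver was not analysed here.

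The 3 families act on the same chemistry, the interconversion of alcohols, aldehydes, ketones and acids. Alcohol dehydrogenases oxidize ethanol and retinol to aldehydes, aldehyde dehydrogenases oxidize aldehydes to acids, and aldo-keto reductases use NADPH to reduce carbonyl groups of sugars, steroids and lipid aldehydes. The liver expresses many of them, where they serve ethanol clearance, retinoic acid synthesis, amino acid breakdown, and steroid and bile acid metabolism.

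Values are CPM, each gene's reads set against all reads of its library on a fixed scale. The libraries held 20941840, 21780251 and 17881282 reads for Myc/NrasG12V replicates 1 to 3, and 23571267, 27865094 and 22005319 reads for Myc/Akt1 replicates 1 to 3. A single read was therefore worth 0.0359 to 0.0559 CPM, and 3 reads, the limit that a count of 0 allows, came to 0.108 to 0.168 CPM, for counting error only. Nras measured 158, 155 and 199.8 CPM in Myc/NrasG12V tumours, against 60.9, 54.9 and 52.1 CPM in Myc/Akt1 tumours. Akt1 measured 55.2, 52.9 and 87.1 CPM in Myc/NrasG12V tumours, against 246, 314 and 280.2 CPM in Myc/Akt1 tumours. Myc measured 179.5, 121 and 158 CPM in Myc/NrasG12V tumours, against 135, 216 and 111 CPM in Myc/Akt1 tumours. Nras and Akt1 were higher in the group labelled with them, Myc overlapped, and delivered and endogenous transcripts were not separated. The species of the delivered coding sequences is not given in the sources used here.

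Most of the 3 families was lower with NrasG12V. A gene is called here when limma's test on log2(CPM + 1) gave a Benjamini-Hochberg adjusted p under 0.05 over the 14365 genes tested; differences are Myc/NrasG12V minus Myc/Akt1 on that scale, which understates the change of low genes. Of the 41 members, 37 passed the filter on low counts, and Adh6b, Akr1c21, Aldh1a2 and Aldh3b2, with 13, 54, 60 and 52 reads, did not. Of these 37, 21 were called lower and 5 higher in Myc/NrasG12V tumours, and 11 were not called. Without replicate 1 or 2 of Myc/Akt1, 3 were called higher. Among all genes tested, 39.5% were called, 29.5% lower and 10% higher. Akr1c18 and Aldh1a3 reached the filter level in the Myc/NrasG12V libraries only, so their passing the filter depended on that group. Aldh3b3, called lower, reached it in the Myc/Akt1 libraries and in replicate 2 of Myc/NrasG12V only, so its passing depended on Myc/Akt1. The median log2 difference was -1.06 over the tested members and -0.26 over all genes tested. With scaling by TMM factors, which moves the median of all genes to 0.00, the median of the members was -0.75, and of all calls 52.4% were lower, against 74.7% in CPM. Of the 37 tested members, 22 were lower and 6 higher with groups that did not overlap, against 38.0% and 14.8% of all genes. Since these are bulk tumour samples, fewer cells of a type and less RNA per cell cannot be told apart.

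The 3 families differed in their make-up. Of 18 tested Aldh genes, 12 were called lower and 1 higher, with a median log2 difference of -1.28. Of 4 tested Adh genes, 2 were called lower and 0 higher, with a median of -1.10. Among the 15 tested Akr genes, 7 were called lower and 4 higher, with a median of -0.59. Calls with a log2 difference of at least 1 in size were 11 lower in Aldh, 1 lower in Adh, and 7 lower and 4 higher in Akr. Across all genes tested, 15.7% were called lower and 6.67% higher by at least that much. Whether the families differed from each other was not tested.

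**Figure D1:**
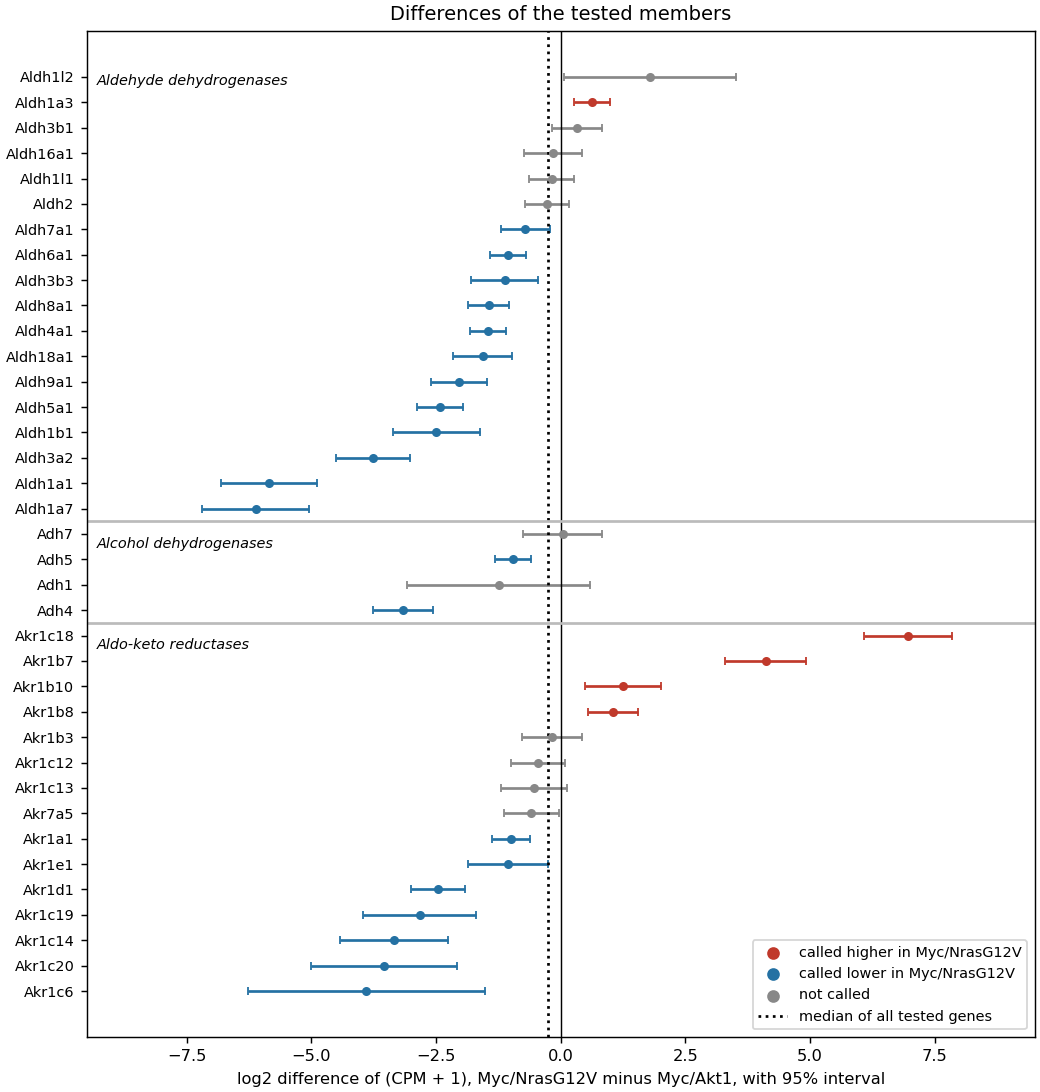
Log2 differences in CPM + 1 (Myc/NrasG12V minus Myc/Akt1, horizontal axis) for the 37 tested Aldh, Adh and Akr genes, with 95% confidence intervals from limma and colours for called higher, called lower and not called. Aldh1a7 lies lowest at -6.12 and Akr1c18 highest at 6.96, and the dotted line marks the median of all genes at -0.26.

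Summed over the family, Aldh transcripts measured 2286, 2254 and 1886 CPM in Myc/NrasG12V tumours, against 8794, 8411 and 7073 CPM in Myc/Akt1 tumours. The sum was 3.78-fold lower with NrasG12V, and 2 genes made up much of the gap. Aldh1a1 and Aldh1a7 together held 3.54%, 3.53% and 1.23% of Aldh CPM in Myc/NrasG12V tumours, against 44.8%, 39.8% and 38.4% in Myc/Akt1 tumours. Without this pair, the remaining Aldh sum was 2.29-fold lower with NrasG12V. Adh transcripts summed to 1731, 1657 and 350.1 CPM in Myc/NrasG12V tumours, against 1955, 1945 and 2345 CPM in Myc/Akt1 tumours. The low Adh sum belonged to replicate 3 of Myc/NrasG12V, and without it the 1.67-fold gap was 1.23-fold. Akr transcripts summed to 980.0, 996.1 and 599.6 CPM in Myc/NrasG12V tumours, against 2016, 2234 and 2445 CPM in Myc/Akt1 tumours, a 2.599-fold lower level with NrasG12V. Replicate 3 of Myc/NrasG12V was again the lowest, and without it the Akr gap was 2.26-fold.

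**Figure D2:**
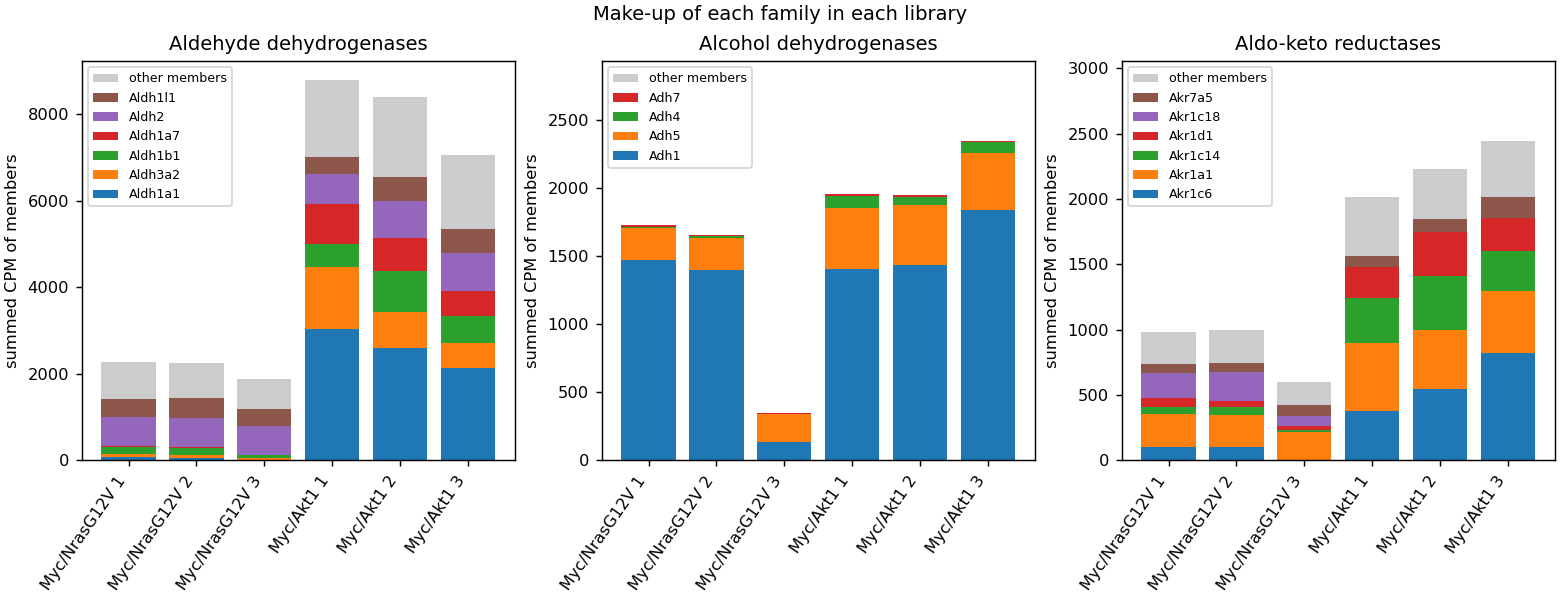
Stacked CPM of the Aldh, Adh and Akr genes in each library, Myc/NrasG12V replicates left of Myc/Akt1 replicates, with the leading genes of each family in their own colours. Aldh1a1 and Aldh1a7 fill almost none of the Aldh bars in Myc/NrasG12V tumours and a large part in Myc/Akt1 tumours, while Akr1c18 appears in the Myc/NrasG12V bars.

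Per kilobase of exon, a rough scale for setting genes beside each other, the leading genes changed between the groups. Lengths were the union of all exons annotated to a gene, not the length of the transcript expressed. The annotation used for counting is not given, so the order of genes is approximate. In Myc/NrasG12V tumours the highest mean levels among Aldh genes were those of Aldh2, Aldh1l1 and Aldh1b1, at 129.95, 94.6 and 57.3 CPM per kilobase. In Myc/Akt1 tumours they were those of Aldh1a1, Aldh1a7 and Aldh1b1, at 524, 362 and 308 CPM per kilobase. Adh1 led the Adh genes in both groups, at 449 CPM per kilobase with NrasG12V and 698 with Akt1. Among Akr genes, Akr1c18 and Akr1a1 led in Myc/NrasG12V tumours, at 137 and 86.7 CPM per kilobase. Akr1c6 and Akr1a1 led in Myc/Akt1 tumours, at 287 and 174 CPM per kilobase.

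Aldh1a1 and Aldh1a7 held the most negative differences among the tested members. Aldh1a1 (ENSMUSG00000053279, GRCm38 chr19:20492715-20643465, plus strand) encodes a cytosolic enzyme that oxidizes retinaldehyde to retinoic acid. It measured 68.5, 61.0 and 19.6 CPM in Myc/NrasG12V tumours, against 3030, 2604 and 2130 CPM in Myc/Akt1 tumours. Each Myc/NrasG12V library lay far below each Myc/Akt1 library. The means were 52.1-fold apart, and 40.0-fold without replicate 3 of Myc/NrasG12V, with a log2 difference of -5.85 (95% interval -6.81 to -4.88, limma adjusted p = 6.46e-05). Its rodent neighbour Aldh1a7 (ENSMUSG00000024747, chr19:20692953-20727562, minus strand) encodes a closely related enzyme. It measured 12.5, 18.5 and 3.52 CPM in Myc/NrasG12V tumours, against 913, 747 and 582 CPM in Myc/Akt1 tumours. The groups were again far apart, by 65.0-fold, or 48.3-fold without replicate 3, with a log2 difference of -6.12 (-7.19 to -5.04, limma adjusted p = 7.97e-05). Of the 75-base windows of their exons, 1.01% in Aldh1a1 and 2.51% in Aldh1a7 were shared with another gene.

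The other Aldh1a genes, Aldh1a2 and Aldh1a3, were near the detection limit. Aldh1a3 measured 0.860, 0.735 and 0.783 CPM in Myc/NrasG12V tumours, against 0.127, 0.108 and 0.273 CPM in Myc/Akt1 tumours, from 48 and 12 reads. It was the only Aldh gene called higher, opposite to the majority of its family, with a log2 difference of 0.62 (0.26 to 0.98, limma adjusted p = 0.0151). The pooled ratio of reads, scaled to library totals, was 4.85 (95% interval from counting 2.54 to 10.03), and the call was lost without Myc/Akt1 replicate 1 (adjusted p = 0.0613) or 2 (0.0596). Aldh1a2, the main embryonic retinaldehyde dehydrogenase, had 60 reads in all 6 libraries and was not tested.

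Other retinoid genes moved in both directions. Of 27 tested genes for retinoid binding, storage, reduction, breakdown and receptors, 7 were called higher, 7 lower and 13 not, with a median log2 difference of -0.27, close to that of all genes. Among all 14365 genes tested, 1437 were called higher and 4240 lower. The share of retinoid genes called lower was thus no larger than that of all genes, and the share called higher was larger. Whether either share differed from that of all genes was not tested. Retsat, which saturates a bond of retinol, averaged 23.0 ± 4.28 CPM in Myc/NrasG12V tumours and 493 ± 211 CPM in Myc/Akt1 tumours (SD, n = 3 each). The binding protein gene Rbp7 averaged 0.0985 CPM in Myc/NrasG12V tumours, near the limit that 3 reads allow, and 5.32 CPM in Myc/Akt1 tumours. Its passing the filter on low counts thus depended on the Myc/Akt1 libraries. The receptor gene Rxrg averaged 1.01 CPM in Myc/NrasG12V tumours and 12.9 CPM in Myc/Akt1 tumours. Limma adjusted p for these 3 lower genes ran between 9.52e-05 for Retsat and 1.80e-04 for Rxrg. In the other direction, Bco1, which cleaves beta-carotene to retinaldehyde, averaged 92.6 ± 14.8 CPM in Myc/NrasG12V tumours and 22.0 ± 4.77 CPM in Myc/Akt1 tumours, 4.21-fold higher with NrasG12V (limma adjusted p = 2.28e-04).

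Several aldehyde dehydrogenases of fatty and small aldehydes were also lower. Aldh3a2 oxidizes long-chain fatty aldehydes in the endoplasmic reticulum and is the gene mutated in human Sjögren-Larsson syndrome. It measured 80.4, 69.9 and 48.3 CPM in Myc/NrasG12V tumours, against 1439, 824 and 595 CPM in Myc/Akt1 tumours. The lowest Myc/Akt1 library lay several-fold above the highest Myc/NrasG12V library. The means were 14.4-fold apart, with a log2 difference of -3.76 (-4.51 to -3.01, limma adjusted p = 1.37e-04). Its promoter, from RefSeq (GRCm38.p6, chr11:61267137-61267436, minus strand, from 250 bases before to 50 after the start), is shown because it holds a CACGTG E-box, the core motif bound by Myc with Max, printed in capitals and beginning 30 bases before the start.
Aldh3a2: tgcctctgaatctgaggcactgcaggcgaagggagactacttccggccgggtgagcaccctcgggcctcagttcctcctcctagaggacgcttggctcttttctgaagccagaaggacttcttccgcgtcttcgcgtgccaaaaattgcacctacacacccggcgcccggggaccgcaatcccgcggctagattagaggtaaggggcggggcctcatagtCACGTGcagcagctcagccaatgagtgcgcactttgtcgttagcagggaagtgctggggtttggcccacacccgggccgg

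Aldh1b1, a mitochondrial enzyme that oxidizes acetaldehyde and retinaldehyde, measured 172, 159 and 64.1 CPM in Myc/NrasG12V tumours, against 545, 959 and 619 CPM in Myc/Akt1 tumours. The groups did not overlap, and the log2 difference was -2.50 (-3.37 to -1.63, limma adjusted p = 0.00143). Aldh2, the mitochondrial enzyme that removes most acetaldehyde after ethanol, was not called. It measured 679, 666 and 653 CPM in Myc/NrasG12V tumours, against 697, 855 and 878 CPM in Myc/Akt1 tumours, a log2 difference of -0.27 (-0.71 to 0.16, limma adjusted p = 0.289). That estimate was close to the median of all genes, and with TMM factors it was 0.04. Aldh3b1, Aldh3b2 and Aldh3b3 form a cluster of 68.2 kb, and their products oxidize lipid aldehydes. Aldh3b3 measured 0.239, 0.505 and 0 CPM in Myc/NrasG12V tumours, against 0.721, 2.26 and 2.41 CPM in Myc/Akt1 tumours, from 16 and 133 reads, and 11 of the 16 were in replicate 2. It was called lower (-1.12, -1.79 to -0.45, limma adjusted p = 0.0166), but the call was lost with edgeR on read counts (0.0569) and without Myc/Akt1 replicate 2 (0.0615) or 3 (0.0558). The pooled ratio of reads, scaled to library totals, was 0.146 (95% interval from counting 0.0810 to 0.246). Of the 75-base windows, 9.49% in Aldh3b3 and 18.3% in Aldh3b2 were shared, mostly with each other, so the split of reads between them is uncertain. Aldh3b1 lay between 5.05 and 6.21 CPM in Myc/NrasG12V tumours and between 3.68 and 4.99 CPM in Myc/Akt1 tumours, and was not called (0.32, limma adjusted p = 0.268).

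The aldehyde dehydrogenases of amino acid, polyamine, choline and carnitine pathways were mostly lower; they are grouped here by pathway, with their values known. Aldh9a1, which acts on aldehydes of polyamine and carnitine metabolism, measured 84.0, 94.2 and 48.2 CPM in Myc/NrasG12V tumours, against 295, 325 and 290.2 CPM in Myc/Akt1 tumours. Aldh5a1, the succinate semialdehyde dehydrogenase of GABA breakdown, measured 23.2, 22.3 and 16.1 CPM in Myc/NrasG12V tumours, against 106, 136 and 101 CPM in Myc/Akt1 tumours. Both genes had groups that lay well apart, at log2 differences of -2.05 (-2.61 to -1.48, limma adjusted p = 5.00e-04) and -2.42 (-2.89 to -1.96, limma adjusted p = 1.20e-04). Aldh4a1, of proline breakdown, measured 94.5, 105 and 82.5 CPM in Myc/NrasG12V tumours, against 252, 256 and 272 CPM in Myc/Akt1 tumours. Aldh18a1, of proline synthesis, measured 21.7, 19.8 and 16.2 CPM in Myc/NrasG12V tumours, against 67.4, 75.9 and 39.1 CPM in Myc/Akt1 tumours. The genes of breakdown and of synthesis of proline were thus both lower, at -1.47 (limma adjusted p = 3.10e-04) and -1.57 (limma adjusted p = 0.00217). Of the windows of Aldh4a1, 28.7% were shared with the overlapping gene Gm21969 of the same strand, so its count is uncertain.

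Aldh8a1, which acts in tryptophan breakdown, measured 78.1, 94.4 and 115 CPM in Myc/NrasG12V tumours, against 251, 274 and 252 CPM in Myc/Akt1 tumours. Aldh6a1, the methylmalonate semialdehyde dehydrogenase of valine breakdown, measured 191, 162 and 166 CPM in Myc/NrasG12V tumours, against 375, 343 and 367 CPM in Myc/Akt1 tumours. These were again separate groups, at log2 differences of -1.44 (limma adjusted p = 5.80e-04) and -1.06 (limma adjusted p = 0.00128). In neither gene was replicate 3 the lowest of the Myc/NrasG12V libraries. Aldh7a1, of lysine breakdown, averaged 222 ± 52.3 CPM in Myc/NrasG12V tumours and 358 ± 41.7 CPM in Myc/Akt1 tumours (SD, n = 3 each). It was called lower (-0.71, limma adjusted p = 0.0308), but not with TMM factors (0.243), nor without replicate 2 of Myc/NrasG12V (0.0582) or replicate 1 (0.102) or 2 (0.101) of Myc/Akt1.

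The genes of formyltetrahydrofolate dehydrogenases, Aldh1l1 in the cytosol and Aldh1l2 in mitochondria, were not called by limma. Aldh1l1 lay between 406 and 459 CPM in Myc/NrasG12V tumours and between 385 and 553 CPM in Myc/Akt1 tumours. Aldh1l2 measured 40.3, 24.6 and 2.85 CPM in Myc/NrasG12V tumours, against 3.65, 5.24 and 2.41 CPM in Myc/Akt1 tumours. Replicates 1 and 2 of Myc/NrasG12V were above all Myc/Akt1 libraries, and replicate 3 lay among them. With all libraries the log2 difference was 1.79 (0.06 to 3.52, limma adjusted p = 0.0929), and without replicate 3 it was 2.81 (limma adjusted p = 5.26e-04). The gene was also called higher with edgeR (adjusted p = 0.0260) and DESeq2 (1.80e-04) on read counts. Aldh16a1, a member of little known function, lay between 51.1 and 73.9 CPM in Myc/NrasG12V tumours and between 49.3 and 92.9 CPM in Myc/Akt1 tumours, and was not called. Aldh1l2, Aldh6a1, Aldh7a1 and Aldh16a1 are each overlapped by a protein-coding gene of the opposite strand, and whether counting used strand is not given in the sources used here.

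Genes of the adjoining steps of amino acid, choline, carnitine and folate pathways were mostly lower. Of 28 tested, 19 were called lower, 1 higher and 8 not, with a median log2 difference of -1.30. With TMM factors 17 were lower and 3 higher. Bhmt, which remethylates homocysteine from betaine, averaged 44.7 ± 24.2 CPM in Myc/NrasG12V tumours and 1685 ± 636 CPM in Myc/Akt1 tumours (SD, n = 3 each). Abat, the GABA transaminase that feeds the enzyme of Aldh5a1, averaged 56.7 ± 15.9 CPM in Myc/NrasG12V tumours and 531 ± 181 CPM in Myc/Akt1 tumours. Dmgdh and Shmt1, of choline breakdown and of serine and folate exchange, were 6.17-fold and 2.55-fold lower with NrasG12V. Limma adjusted p for these 4 ran between 7.34e-05 for Bhmt and 4.67e-04 for Shmt1. Acmsd, of tryptophan breakdown upstream of Aldh8a1, was the gene called higher, at 18.96 ± 7.48 CPM in Myc/NrasG12V tumours and 7.43 ± 0.825 CPM in Myc/Akt1 tumours (limma adjusted p = 0.0128), a call lost without replicate 1 of Myc/Akt1.

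**Figure D3:**
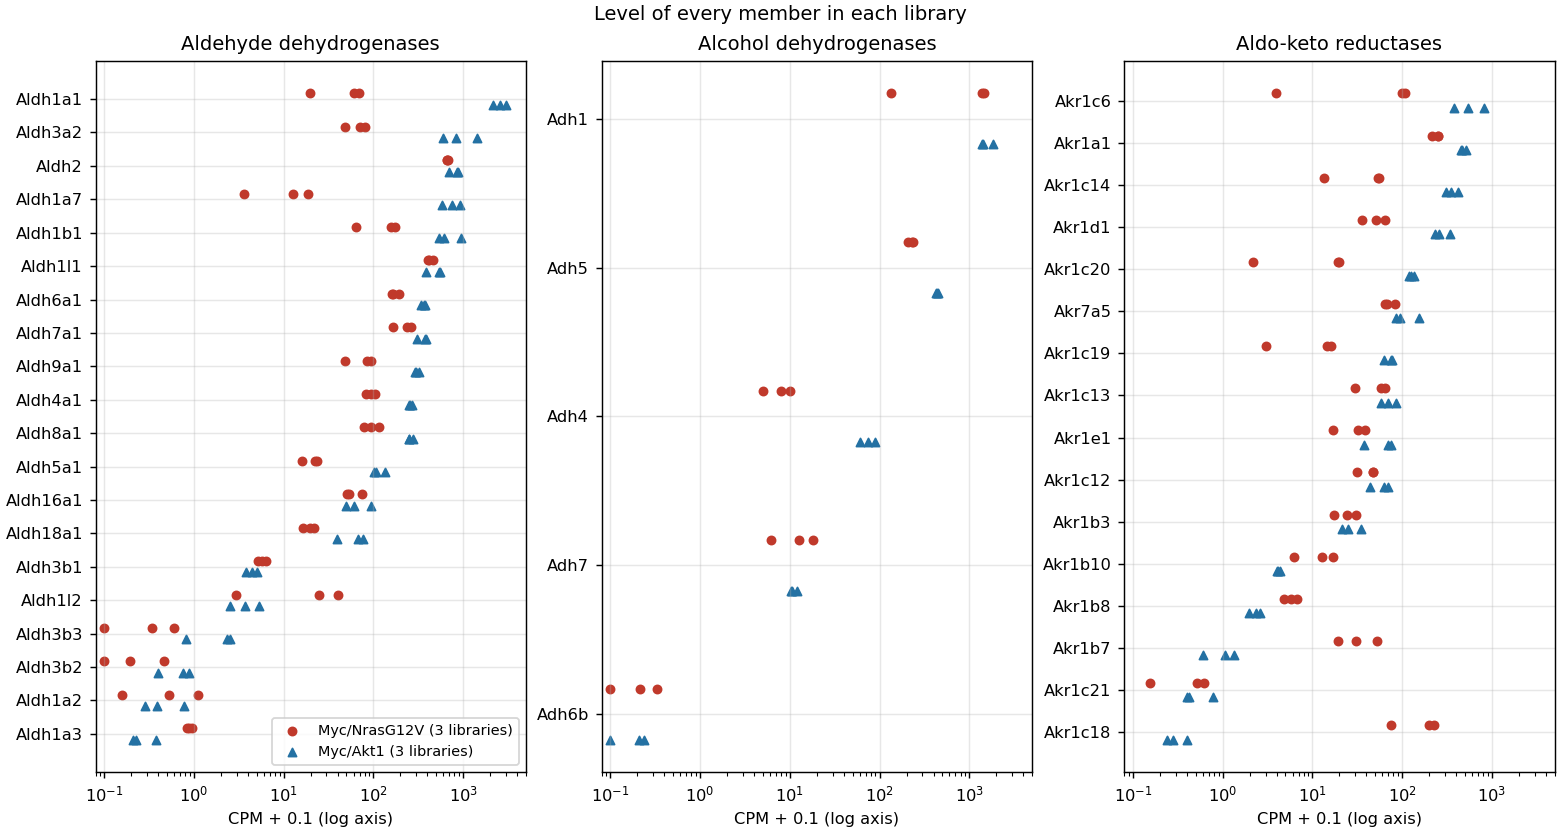
CPM + 0.1 (horizontal log axis) of each Aldh, Adh and Akr gene in each library, circles for Myc/NrasG12V and triangles below them for Myc/Akt1. The points of Aldh1a1, Aldh1a7 and Akr1c18 are separated by more than a factor of 10 between the groups, and those of Aldh2 lie between 653 and 878 CPM.

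The Adh genes lie in 1 cluster of 237.7 kb on chromosome 3 (chr3:138217760-138455499), and its members differed from each other. Adh4 (ENSMUSG00000037797, chr3:138415466-138430892, plus strand) encodes the class II enzyme, which oxidizes retinol and longer alcohols. It measured 7.97, 9.87 and 4.92 CPM in Myc/NrasG12V tumours, against 89.8, 60.2 and 74.6 CPM in Myc/Akt1 tumours. The groups were far apart, with means 9.87-fold lower with NrasG12V and a log2 difference of -3.17 (-3.77 to -2.57, limma adjusted p = 1.20e-04). Adh5, the glutathione-dependent formaldehyde dehydrogenase found in most tissues, measured 231, 237 and 205 CPM in Myc/NrasG12V tumours, against 450.0, 440.4 and 421 CPM in Myc/Akt1 tumours. It was called lower by a smaller amount, with a log2 difference of -0.96 (-1.32 to -0.60, limma adjusted p = 0.00204). The remaining Adh sum without Adh1 was 2.14-fold lower with NrasG12V.

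Adh1 (ENSMUSG00000074207, chr3:138260991-138290698, plus strand), the main hepatic ethanol and retinol dehydrogenase, depended on a single library. It measured 1474, 1398 and 134 CPM in Myc/NrasG12V tumours, against 1404, 1433 and 1839 CPM in Myc/Akt1 tumours. Replicates 1 and 2 of Myc/NrasG12V lay within or next to the Myc/Akt1 values, and their mean was 10.7-fold that of replicate 3. The gene was not called, with a log2 difference of -1.25 (-3.08 to 0.59, limma adjusted p = 0.25), and without replicate 3 the difference was -0.11 (limma adjusted p = 0.711). Adh7, the class IV enzyme of stomach epithelium, measured 18.1, 12.5 and 6.10 CPM in Myc/NrasG12V tumours and lay between 10.3 and 11.9 CPM in Myc/Akt1 tumours, and was not called (0.04, limma adjusted p = 0.942). Adh6b did not exceed 0.230 CPM in Myc/NrasG12V tumours or 0.136 CPM in Myc/Akt1 tumours.

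Of 7 other genes of ethanol, acetate and formaldehyde handling, 6 were called lower and 0 higher, with a median log2 difference of -1.82, and 5 were lower with TMM factors. Acss3, a mitochondrial acyl-CoA synthetase, averaged 0.676 ± 0.226 CPM in Myc/NrasG12V tumours and 19.5 ± 6.72 CPM in Myc/Akt1 tumours (SD, n = 3 each). Adhfe1, a hydroxyacid dehydrogenase with an iron-containing alcohol dehydrogenase domain, averaged 24.8 ± 5.07 CPM in Myc/NrasG12V tumours and 101 ± 0.840 CPM in Myc/Akt1 tumours. Esd, which completes formaldehyde oxidation after the enzyme of Adh5, averaged 104 ± 18.6 CPM in Myc/NrasG12V tumours and 276 ± 32.1 CPM in Myc/Akt1 tumours. Acss2, the cytosolic acetyl-CoA synthetase, averaged 21.1 ± 8.54 CPM in Myc/NrasG12V tumours and 72.9 ± 8.72 CPM in Myc/Akt1 tumours. Limma adjusted p for these 4 ran between 1.22e-04 for Acss3 and 0.00211 for Acss2. Cyp2e1, the microsomal ethanol oxidase, was the gene not called (limma adjusted p = 0.166).

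The Akr1c genes reduce or oxidize steroids, prostaglandins and lipid carbonyls, and with Akr1e1 they occupy 560.2 kb of chromosome 13 (chr13:4049011-4609174). Of the 9 members there, 8 were tested, of which 1 was called higher, 5 lower and 2 not. Akr1c18 (ENSMUSG00000021214, chr13:4132615-4150654, minus strand) encodes a hydroxysteroid dehydrogenase that inactivates progesterone in the mouse ovary. It measured 197, 225 and 74.3 CPM in Myc/NrasG12V tumours, against 0.297, 0.179 and 0.136 CPM in Myc/Akt1 tumours, from 10343 and 15 reads. The Myc/Akt1 libraries were near the limit that 3 reads allow, whereas each Myc/NrasG12V library lay far above it. The pooled ratio of reads, scaled to library totals, was 836 (95% interval from counting 506 to 1494), and the log2 difference was 6.96 (6.07 to 7.85, limma adjusted p = 2.46e-05). This was the lowest adjusted p and the largest difference among the tested members.

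Neither neighbour in gene order, Akr1c14 or Akr1c13, was called higher. Akr1c14, a hydroxysteroid dehydrogenase of the rodent liver, measured 53.8, 55.1 and 13.2 CPM in Myc/NrasG12V tumours, against 349.5, 415 and 309.7 CPM in Myc/Akt1 tumours. Akr1c6, a hydroxysteroid dehydrogenase of the mouse liver, measured 106, 99.4 and 3.80 CPM in Myc/NrasG12V tumours, against 377, 547 and 826 CPM in Myc/Akt1 tumours. Akr1c14 was called lower at -3.34 (-4.42 to -2.26, limma adjusted p = 0.00104) and Akr1c6 at -3.90 (-6.27 to -1.52, limma adjusted p = 0.0177). The low replicate 3 widened the interval of Akr1c6, whose means were 8.35-fold apart, or 5.67-fold without it. Its call was lost with edgeR (0.0612) and DESeq2 (0.0544) on read counts, and without replicate 2 (0.0510) or 3 (0.0632) of Myc/Akt1.

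Akr1c19 and Akr1c20 followed the same direction. Akr1c19 measured 16.2, 14.5 and 2.96 CPM in Myc/NrasG12V tumours, against 75.0, 63.2 and 76.6 CPM in Myc/Akt1 tumours. Akr1c20 measured 19.3, 19.9 and 2.07 CPM in Myc/NrasG12V tumours, against 124, 121 and 136 CPM in Myc/Akt1 tumours. In each the groups were apart, and replicate 3 of Myc/NrasG12V was lowest, at log2 differences of -2.83 (limma adjusted p = 0.00268) and -3.55 (limma adjusted p = 0.00319). Akr1e1, an aldo-keto reductase at the end of the cluster, measured 32.1, 38.4 and 16.9 CPM in Myc/NrasG12V tumours, against 75.4, 69.9 and 37.9 CPM in Myc/Akt1 tumours. Here the groups overlapped at 1 library each. The call at -1.06 (-1.85 to -0.26, limma adjusted p = 0.0403) was lost with TMM factors (0.161), and without replicate 1 (0.0624) or 3 (0.0770) of Myc/NrasG12V or replicate 1 (0.139) or 2 (0.127) of Myc/Akt1.

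Akr1c12 and Akr1c13 form the most similar pair of the cluster and were not called. Akr1c12 lay between 31.7 and 47.6 CPM in Myc/NrasG12V tumours and between 43.6 and 68.8 CPM in Myc/Akt1 tumours (-0.46, limma adjusted p = 0.154). Akr1c13 lay between 29.8 and 63.7 CPM in Myc/NrasG12V tumours and between 58.7 and 84.3 CPM in Myc/Akt1 tumours (-0.54, limma adjusted p = 0.169). Of their 75-base windows, 17.3% in Akr1c12 and 14.3% in Akr1c13 were shared with each other, so the split of reads between them is uncertain. Their sum was 105.1, 111 and 61.4 CPM in Myc/NrasG12V tumours, against 133, 102 and 153 CPM in Myc/Akt1 tumours, which overlapped as well. The likeness of the pair extends to the promoter. Below are the RefSeq promoters (GRCm38.p6, 250 bases before to 50 after the start) of Akr1c12 (chr13:4279350-4279649, minus strand) and Akr1c13 (chr13:4190937-4191236, plus strand), with bases that differ or have no partner in capitals, beside that of Akr1c18, the gene of the cluster called higher (chr13:4150597-4150896, minus strand), in lower case throughout.
Akr1c12: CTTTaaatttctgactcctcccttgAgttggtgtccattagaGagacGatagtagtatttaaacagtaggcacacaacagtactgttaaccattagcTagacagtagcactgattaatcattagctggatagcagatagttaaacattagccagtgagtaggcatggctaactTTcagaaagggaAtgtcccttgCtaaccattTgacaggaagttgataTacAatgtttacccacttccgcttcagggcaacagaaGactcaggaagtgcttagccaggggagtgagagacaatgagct
Akr1c13: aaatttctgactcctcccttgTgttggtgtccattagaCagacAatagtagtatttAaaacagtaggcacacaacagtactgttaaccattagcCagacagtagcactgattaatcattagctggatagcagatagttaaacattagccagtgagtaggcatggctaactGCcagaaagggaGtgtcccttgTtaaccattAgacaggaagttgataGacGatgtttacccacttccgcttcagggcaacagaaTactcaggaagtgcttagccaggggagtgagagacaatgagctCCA
Akr1c18: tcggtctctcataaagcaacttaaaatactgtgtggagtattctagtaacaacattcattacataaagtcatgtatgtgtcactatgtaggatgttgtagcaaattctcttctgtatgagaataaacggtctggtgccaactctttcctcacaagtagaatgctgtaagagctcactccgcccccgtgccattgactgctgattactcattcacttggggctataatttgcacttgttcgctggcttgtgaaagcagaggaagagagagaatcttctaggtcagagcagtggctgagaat
The Akr1c12 and Akr1c13 promoters were 93.4% identical, with 12 substituted and 8 unpaired positions over an alignment of 304. The 20 other pairs among the 7 Akr1c promoters in the table, those of Akr1c18 included, were 45.4% to 58.8% identical.

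**Figure D4:**
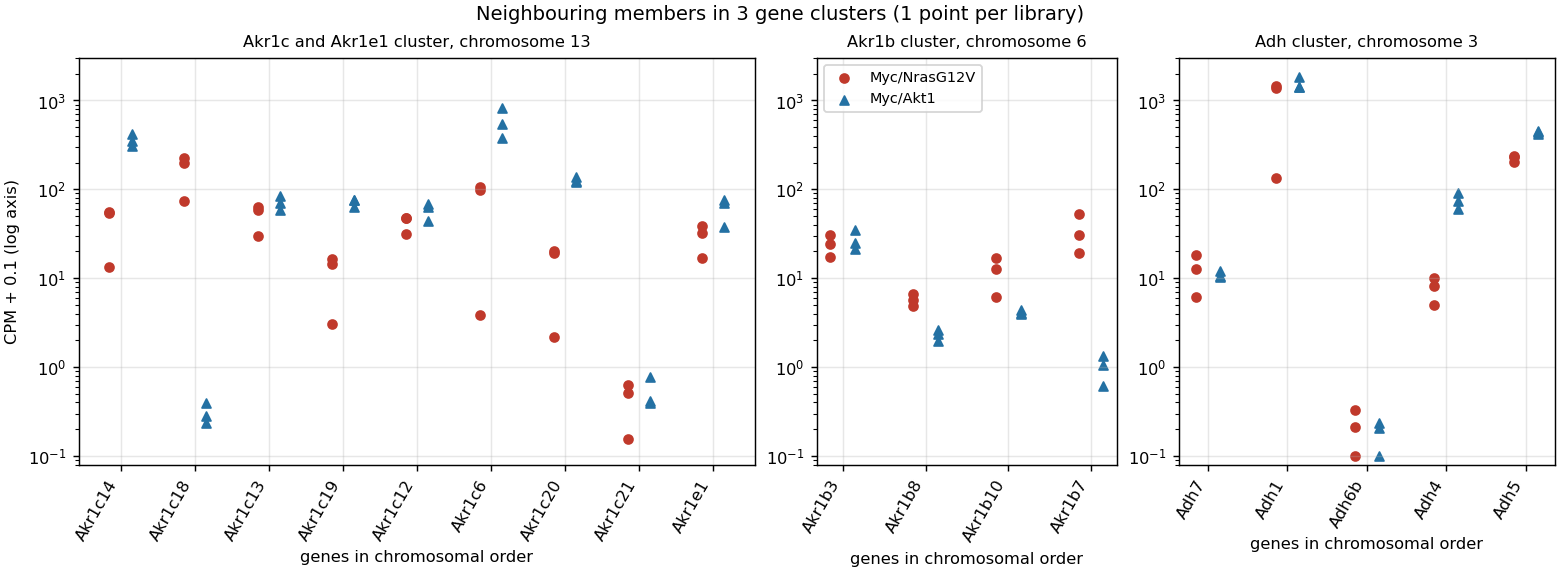
CPM + 0.1 (vertical log axis) in each library for the Akr1c and Akr1e1, Akr1b and Adh clusters, with genes in chromosomal order, circles for Myc/NrasG12V and triangles to their right for Myc/Akt1. Akr1c18 and Akr1b7 have their circles far above their triangles, Akr1c14 and Akr1c6 the reverse, and 1 circle of Adh1, at 134 CPM, lies below the rest.

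The Akr1b cluster on chromosome 6, 120.7 kb long (chr6:34302434-34423142), held the other Akr genes called higher. Of its 4 genes, 3 were called higher and 1 was not. Akr1b7 (ENSMUSG00000052131, chr6:34412334-34423142, plus strand) encodes an aldose reductase-like protein known from mouse vas deferens and adrenal gland, which reduces lipid aldehydes. It measured 19.1, 30.8 and 52.1 CPM in Myc/NrasG12V tumours, against 0.509, 0.969 and 1.23 CPM in Myc/Akt1 tumours. The groups were far apart, by 37.7-fold, or 27.7-fold without replicate 3 of Myc/NrasG12V, with a log2 difference of 4.11 (3.29 to 4.93, limma adjusted p = 1.37e-04). Unlike Akr1c18, this gene was highest in replicate 3. Akr1b8, which reduces retinaldehyde and lipid aldehydes, measured 4.73, 6.57 and 5.65 CPM in Myc/NrasG12V tumours, against 2.50, 2.26 and 1.86 CPM in Myc/Akt1 tumours. Akr1b10, a related reductase, measured 12.7, 6.11 and 16.7 CPM in Myc/NrasG12V tumours, against 3.99, 4.23 and 3.91 CPM in Myc/Akt1 tumours. Both had separate groups, at log2 differences of 1.046 (0.55 to 1.55, limma adjusted p = 0.00619) and 1.2504 (0.49 to 2.01, limma adjusted p = 0.0176). The Akr1b10 call was lost without replicate 1 of Myc/NrasG12V (0.0577) or replicate 1 (0.0569) or 2 (0.0510) of Myc/Akt1.

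Akr1b3, the aldose reductase that makes sorbitol from glucose, was the Akr1b gene not called. It lay between 17.1 and 30.7 CPM in Myc/NrasG12V tumours and between 21.4 and 34.4 CPM in Myc/Akt1 tumours, with a log2 difference of -0.17 (-0.77 to 0.42, limma adjusted p = 0.632) that was 0.13 with TMM factors. Among 8 other genes of the polyol, fructose and ascorbate pathways, 5 were called lower and 0 higher, with a median of -1.60, and 4 were lower with TMM factors. Ugdh, which makes UDP-glucuronate, averaged 46.5 ± 11.98 CPM in Myc/NrasG12V tumours and 579.6 ± 131 CPM in Myc/Akt1 tumours (SD, n = 3 each). Khk, the fructokinase, averaged 223 ± 13.4 CPM in Myc/NrasG12V tumours and 557 ± 73.1 CPM in Myc/Akt1 tumours. Rgn, the gluconolactonase of ascorbate synthesis, averaged 46.2 ± 36.4 CPM in Myc/NrasG12V tumours and 627 ± 364 CPM in Myc/Akt1 tumours, a 13.6-fold gap that was 9.03-fold without replicate 3 of Myc/Akt1. Limma adjusted p for these 3 ran between 5.39e-05 for Ugdh and 0.00586 for Rgn.

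The remaining Akr genes lie apart from these clusters. Akr1d1, the steroid beta-reductase of bile acid synthesis, measured 63.9, 50.4 and 35.9 CPM in Myc/NrasG12V tumours, against 234, 339.6 and 255 CPM in Myc/Akt1 tumours. Akr1a1, the aldehyde reductase of glucuronate and ascorbate metabolism, measured 251, 251 and 213 CPM in Myc/NrasG12V tumours, against 519.7, 449 and 468 CPM in Myc/Akt1 tumours. Neither gene overlapped between groups, and both were called lower, at -2.46 (-3.01 to -1.91, limma adjusted p = 1.95e-04) and -1.004 (-1.39 to -0.62, limma adjusted p = 0.00216). Akr7a5, which reduces succinate semialdehyde and aflatoxin dialdehyde, measured 67.5, 63.6 and 83.9 CPM in Myc/NrasG12V tumours, against 85.3, 94.1 and 154 CPM in Myc/Akt1 tumours. Its groups did not overlap, by a narrow margin, but it was not called (-0.59, -1.14 to -0.04, limma adjusted p = 0.0845). Akr1c21 did not exceed 0.525 CPM in Myc/NrasG12V tumours or 0.682 CPM in Myc/Akt1 tumours and was not tested.

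Other steroid and bile acid enzymes around Akr1d1 and the Akr1c genes were mostly lower. Of 22 tested, 14 were called lower, 2 higher and 6 not, with a median log2 difference of -1.25, and 9 were lower and 2 higher with TMM factors. Cyp8b1, the sterol hydroxylase that directs synthesis to cholic acid, averaged 9.31 ± 2.26 CPM in Myc/NrasG12V tumours and 257 ± 58.2 CPM in Myc/Akt1 tumours (SD, n = 3 each). Srd5a1, a steroid alpha-reductase, averaged 4.17 ± 1.73 CPM in Myc/NrasG12V tumours and 44.1 ± 9.98 CPM in Myc/Akt1 tumours. Hsd17b4, of peroxisomal side-chain shortening, and Hsd3b7, of the bile acid ring, were 5.94-fold and 3.23-fold lower with NrasG12V. Limma adjusted p for these 4 ran between 1.92e-05 for Cyp8b1 and 4.61e-04 for Hsd3b7. The genes called higher were Hsd17b6, at 131 ± 60.1 CPM in Myc/NrasG12V tumours and 22.4 ± 8.68 CPM in Myc/Akt1 tumours (limma adjusted p = 0.00238), and Cyp39a1, at 127 ± 52.7 CPM in Myc/NrasG12V tumours and 57.3 ± 23.7 CPM in Myc/Akt1 tumours (limma adjusted p = 0.0471). The Cyp39a1 call was lost when replicate 1 or 2 of Myc/NrasG12V, or replicate 1 or 3 of Myc/Akt1, was left out.

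Of 20 other tested enzymes that oxidize or reduce carbonyl groups, 15 were called lower and 0 higher, with a median of -1.16, and 11 were lower with TMM factors. Dhrs4, a peroxisomal carbonyl reductase, averaged 36.1 ± 6.87 CPM in Myc/NrasG12V tumours and 183 ± 22.4 CPM in Myc/Akt1 tumours (SD, n = 3 each). Aox1, an aldehyde oxidase, averaged 22.1 ± 8.26 CPM in Myc/NrasG12V tumours and 167 ± 32.9 CPM in Myc/Akt1 tumours. Hagh and Glo1, of the glyoxalase pathway that removes methylglyoxal, were 4.28-fold and 3.30-fold lower with NrasG12V. Limma adjusted p for these 4 ran between 1.20e-04 for Dhrs4 and 4.39e-04 for Glo1.

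Genes zoned within the hepatocyte lobule were also listed. Of 11 tested pericentral genes, a class to which many xenobiotic enzymes belong, 3 were called lower and 0 higher, with a median of -1.15, a share lower close to the 29.5% of all genes. They included Cyp2c29 and Tbx3, with limma adjusted p of 0.00674 and 0.0363, and Tbx3 was not called with TMM factors. Of 12 tested periportal genes, 5 were called higher and 2 lower, with a median of 0.51, but 2 were called higher without replicate 1 of Myc/Akt1, and 3 without its replicate 2 or without replicate 2 of Myc/NrasG12V. Cdh1 averaged 168 ± 3.50 CPM in Myc/NrasG12V tumours and 59.1 ± 20.4 CPM in Myc/Akt1 tumours (SD, n = 3 each; limma adjusted p = 0.00156). Ctsc and Hal were 2.39-fold and 2.07-fold higher with NrasG12V (limma adjusted p = 0.00358 and 0.0196), and the Hal call was lost without replicate 1 of Myc/Akt1. Cyp2f2, a periportal cytochrome P450, went the other way, at 10.2 ± 6.03 CPM in Myc/NrasG12V tumours and 299 ± 149 CPM in Myc/Akt1 tumours (limma adjusted p = 1.83e-04), a 29.3-fold gap that was 44.4-fold without replicate 2 of Myc/NrasG12V. Ass1, of the urea cycle, was 1.75-fold lower (limma adjusted p = 0.0342), and was not called with TMM factors or without replicate 1 or 2 of Myc/NrasG12V or any 1 replicate of Myc/Akt1.

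Replicate 3 of Myc/NrasG12V stood apart from the other libraries of its group. It lay at -46.2 on the second principal component of all tested genes (11.6% of variance), where replicates 1 and 2 lay at 30.2 and 24.3. It was the lowest of its group in 28 of 37 tested members, 75.7%, against 30.3% of all genes tested. It lay below 50% of the mean of replicates 1 and 2 in 14 members, 37.8%, against 9.06% of all genes. Among the 36 tested members with reads in that library, the steepest was Akr1c6, at 27.1-fold below that mean, followed by Aldh1l2 and Adh1, whereas Akr1b7 was the 1 member above 200% of it. Without the library, 25 of the 26 called members remained called.

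**Figure D5:**
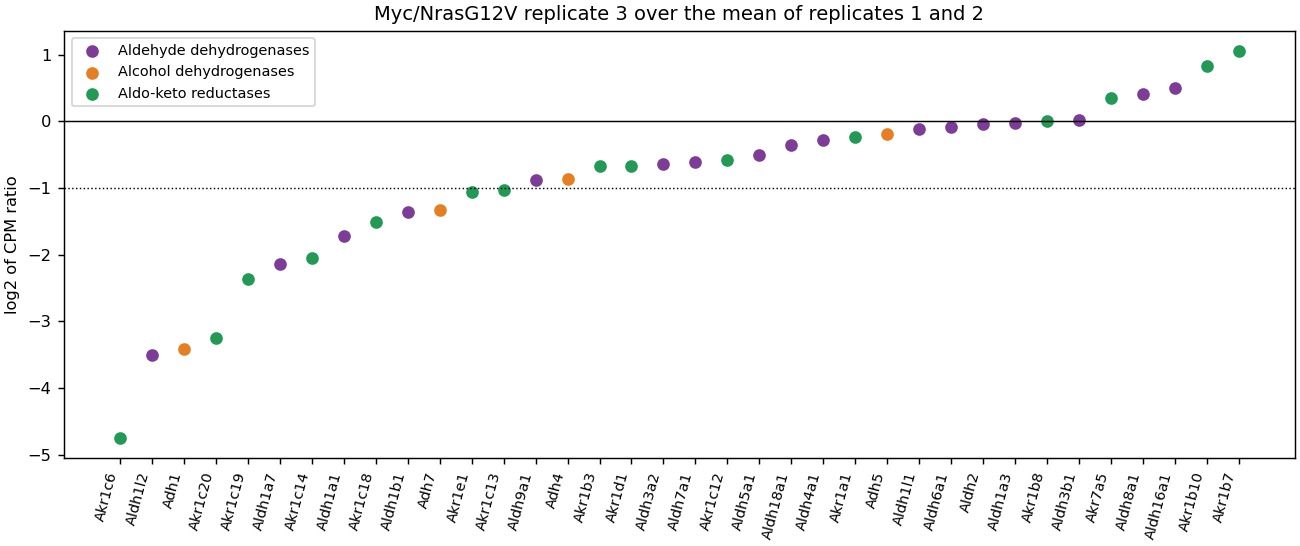
Log2 ratio of the CPM in Myc/NrasG12V replicate 3 to the mean CPM of replicates 1 and 2 (vertical axis), 1 point per gene in rising order and coloured by family, for 36 tested genes; Aldh3b3, at 0 in replicate 3, is not drawn. The solid line marks equality and the dotted line 50% of the mean, and Akr1c6, Aldh1l2 and Adh1 lie lowest while Akr1b7 lies highest.

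Markers of erythroid cells and neutrophils moved with the groups and with that library. The summed level of erythroid markers was 301, 1073 and 1870 CPM in Myc/NrasG12V tumours, against 50.03 to 104 CPM in Myc/Akt1 tumours, with 6 of 8 tested markers called higher. Neutrophil markers summed to 31.7, 72.4 and 203 CPM in Myc/NrasG12V tumours, against 3.68 to 4.71 CPM in Myc/Akt1 tumours, with 7 of 9 called higher. Both sums were highest in Myc/NrasG12V replicate 3. Markers of cholangiocytes and progenitors summed to 891 to 1408 CPM in Myc/NrasG12V tumours, against 146 to 280 CPM in Myc/Akt1 tumours, with 4 of 9 called higher. Called higher were also 4 of 10 macrophage, 5 of 10 endothelial, 6 of 10 T and NK cell and 2 of 11 stellate cell markers, and 0 of 5 B cell markers, while 1 endothelial and 1 T and NK cell marker were called lower. With TMM factors, 7 of 10 macrophage, 6 of 9 cholangiocyte and progenitor, 8 of 9 neutrophil, 3 of 11 stellate cell and 1 of 5 B cell markers were called higher, and 0 endothelial, T and NK cell or hepatocyte markers lower. Of all 14365 genes, 1437 were called higher and 4240 lower in the main test, and 2331 higher and 2565 lower with TMM factors. With so few markers, the stellate cell and B cell counts do not set these cells apart from all genes. Whether the counts of any cell type differed from the shares of all genes was not tested. No listed marker in the files was at 0 reads in all libraries. Hepatocyte markers, the labelled tissue's own, summed to 136720 to 168030 CPM in Myc/NrasG12V tumours, against 51066 to 62675 CPM in Myc/Akt1 tumours, with 4 of 12 called higher and 1 lower. Most of these sums was Alb, at 123710, 118150 and 90716 CPM in Myc/NrasG12V tumours, against 29894, 32330 and 38466 CPM in Myc/Akt1 tumours. Alb itself was 3.30-fold higher with NrasG12V and its groups did not overlap, but it was not called (log2 difference 1.72, limma adjusted p = 0.184). The part of these other cells in the differences of the Aldh, Adh and Akr genes was not tested.

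The promoters of 33 members were in the RefSeq table, 36 promoters in all. An E-box, CACGTG, which reads the same on both strands, was present in 11.1% of them, those of Adh1, Akr1c21, Aldh18a1 and Aldh3a2, against 7.15% of the 32851 promoters of the table. The core of the antioxidant response element, TGACNNNGC on either strand, was present in 8.33%, those of Akr1c19, Aldh1a2 and Aldh9a1, against 12.4% of the table. Neither motif was in the Akr1c18 window shown above, and no overlap between the motifs was considered.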

How the data were processed

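RNA from 6 liver tumours was sequenced as poly(A)-selected, stranded single-end libraries, per the labels' protocols. STAR 2.6.1c, Subread 1.6.3, edgeR 3.22.5 and GRCm38 are named in the submitters' processing notes; the gene annotation, use of strand and handling of multimapping reads are not given in the sources used here. The authors deposited CPM values without further scaling between libraries. All values, 100.0% within 0.01 read, came out as whole reads when divided by each library's step, so read counts were recovered.

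Genes with low counts were removed (edgeR 4.0.16 filterByExpr, at least 0.457 CPM in 3 libraries), leaving 14365. The main test was limma 3.58.1 (with a trend) on log2(CPM + 1), a pseudocount of 1, in R 4.3.3. Alternatives were upper-quartile, TMM and median-of-ratios scaling, edgeR's quasi-likelihood test and DESeq2 1.42.0 on the recovered reads, other filters and pseudocounts, a replicate block and each library left out. edgeR called 4893 genes, of which 3943 were also called by limma in the same direction. With 3 libraries a group, an exact two-sided permutation test of 1 gene cannot give a p below 0.1, so none was used. The fits were tested on simulated counts.

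All members are named. Values of every library are given for members called with a log2 difference of at least 1 in size or against the majority of their family, and for some others, chosen after their values were seen. Of each pathway list, the 4 genes of lowest adjusted p and the called genes opposite to the majority are named where the list is in 1 direction. A few list genes that this rule would name are not reported here. Members and lists were chosen with earlier results of these data known. All 41 members matched GENCODE M21, as did 37693 of the 39179 gene IDs, and shared windows are 75-base stretches of exon found in another gene. Promoters came from RefSeq (GRCm38.p6). No pair of libraries agreed within sampling noise.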

Additional observations from a re-analysis of the deposited data

How the results depend on the processing

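Of the 26 called Aldh, Adh and Akr genes, 20 were called under every alternative run for them. Akr1b10, Akr1c6, Akr1e1, Aldh1a3, Aldh3b3 and Aldh7a1 lost the call in at least 1, and the cause was not tested. Over all tested genes, calls higher and lower in Myc/NrasG12V numbered 2544 and 2343 with upper-quartile factors, 2331 and 2565 with TMM factors, 2366 and 2515 with factors by the median of ratios, 2381 and 2512 with edgeR, and 2752 and 2791 with DESeq2, against 1437 and 4240. Leaving out 1 library gave 966 to 1502 higher and 2890 to 4796 lower, 3 to 6 members higher, and 0 to 2 Aldh genes higher. Aldh genes called higher, 1 in the main test, numbered 2 with upper-quartile factors, edgeR or the replicate block, 3 with DESeq2 and 0 with a filter of 1 CPM, where Aldh1a3 and Aldh3b3 were not tested. Medians of the members stayed below that of all genes under each scaling, at -0.68 to -1.06.

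No pairing of the libraries by replicate number was seen, as deviations from the group means correlated at -0.08, 0.11 and 0.08. With 3 libraries a group, such correlations cannot exclude a pairing. With the replicate block, 6 members were higher and 22 lower, with Aldh1l2 (adjusted p = 0.0334) and Akr7a5 (0.0408) gained.

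Signs turned for uncalled genes only. In the order TMM, median-of-ratios, upper-quartile, edgeR and DESeq2, the log2 difference was 0.13, 0.14, 0.18, 0.16 and 0.17 for Akr1b3, 0.15, 0.16, 0.21, 0.11 and 0.12 for Aldh16a1, 0.13, 0.14, 0.19, 0.12 and 0.13 for Aldh1l1, and 0.042, 0.047, 0.096, 0.037 and 0.043 for Aldh2. With 1 library left out, values ran from -0.364 to 0.0385 for Akr1b3, from -0.284 to 0.432 for Adh7 and from -0.357 to 0.0922 for Aldh16a1. Depth limits Aldh1a3, Aldh3b3 and the untested members, whose values rest on few reads.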
